A study of Urocitellus parryii with 24 samples.

Results

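Cytosolic phosphoenolpyruvate carboxykinase (PCK1) and lactate dehydrogenase A (LDHA) were followed across the livers of 24 Arctic ground squirrels (AGS, Urocitellus parryii). They are 2 of the 1329 genes that could be named among the 9600 spotted cDNA probes. Both were chosen because earlier results of these data showed them higher in hibernation, so their differences among the states are given as a description, with no test. PCK1 was read by probe gene6624 and LDHA by probe gene5468. Each symbol was matched to the probe whose 3 state means equal those that the study lists for the symbol, within 0.0001. The study lists genes that differed among the states. For a symbol with several probes, it kept the probe with the smallest p across the states. Differences and ranks given here are thus those of probes selected on these arrays. Any other probes of PCK1 and LDHA could not be named, and whether they differ alike was not tested.

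Each liver was hybridized to 1 nylon membrane. There were 4 animals in early torpor, 5 in late torpor, 4 in early arousal, 4 in late arousal, and 7 in summer, after reproduction. Torpor is abbreviated as T, arousal episodes as A, and the summer active, post-reproduction state as P. All AGS were trapped in the wild and then kept in captivity, and the labels give neither age nor sex. The T and A animals were kept under a short photoperiod, carried a temperature transmitter, and had no food throughout hibernation. Early torpor lay near the start of a torpor bout and late torpor near the end of its usual length. Early arousal was the time just after the body had rewarmed, and late arousal was several hours later. The P animals were warm, were in molt, and had chow at all times. Torpid AGS were decapitated without anesthesia, whereas A and P animals were under isoflurane. Season, food, photoperiod, and the transmitter (between P and the others) cannot be told apart from state. Neither can body temperature and anesthesia (between T and the others).

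PCK1 turns oxaloacetate into phosphoenolpyruvate, the step by which lactate and amino acids enter gluconeogenesis. Its transcript is known to rise in the liver with fasting and glucagon and to fall with insulin. LDHA encodes the main lactate dehydrogenase subunit of liver. The enzyme interconverts lactate and pyruvate, and so serves glycolysis in one direction and the use of lactate for glucose in the other. The level of its transcript does not tell these directions apart. In the RefSeq annotation of the AGS assembly mUroPar1.hap1, Pck1 lies between Zbp1 and Ctcfl, and Ldha lies between LOC113200890 and Gtf2h1. The same annotation holds the relatives Pck2, Ldhb, and Ldhd. A cDNA probe may also bind transcripts of close relatives, and the sequences of the spotted clones were not used here.

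A level is the log2 of the background-subtracted median signal of a spot over the median of that value on its array, so that 0 is the middle probe of the array. Array medians of the spot signal ranged from 72.8 to 114 in T, 84.3 to 132 in A, and 54.1 to 91.9 in P, in units of intensity. Those of the local background ranged from 13.3 to 19.9 over all arrays. The scanner files name 2 filter sets. All 9 T arrays, 7 of 8 A arrays, and 2 of 7 P arrays were on A1 filters, and the other 6 were on A2 filters. The animal identifiers in the labels begin with 04 in 7 of 9 T, 7 of 8 A, and 1 of 7 P animals. The other identifiers begin in several different ways and were pooled here as another prefix. The labels do not say what a prefix stands for. Filter set, prefix, and array brightness thus differ with state, and values within each filter set and prefix are given beside the results. No spot of PCK1 or LDHA was marked as empty on any array. The PCK1 signal was between 19.7 and 116 times its local background, and that of LDHA between 40.4 and 154 times.

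PCK1 was highest in torpor. Its level was 8.13, 8.04, 9.01, and 7.94 in the 4 early torpor livers. It was 8.21, 8.19, 8.32, 9.47, and 7.55 in the 5 late torpor livers. All 9 T livers thus lay between 7.55 and 9.47, and the ranges of early and late torpor overlapped.

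In arousal the PCK1 level was 6.78, 7.95, 8.45, and 6.82 early and 6.96, 7.89, 8.41, and 4.96 late. The last value, of late arousal animal 4, was the only A value under 6.78. In P, the level ran from 2.97 over a median of 4.32 to 6.78. There 4 livers lay between 2.97 and 4.32 and the other 3 between 6.10 and 6.78, so that the P livers with the most PCK1 came close to the lower A livers.

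Group means of the PCK1 level were 8.35 ± 0.70 (SD, n = 5) in late torpor, 8.28 ± 0.50 (SD, n = 4) in early torpor, 7.50 ± 0.83 (SD, n = 4) in early arousal, 7.05 ± 1.52 (SD, n = 4) in late arousal, and 4.84 ± 1.63 (SD, n = 7) in P. In this order, the ranges of each pair of neighbouring groups overlapped. Late arousal and P overlapped through late arousal animal 4. The ranges of early torpor and late torpor lay clear of P, and the lowest early arousal liver and the highest P liver were both at 6.78.

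LDHA was higher in most hibernating livers than in P. Its level was 7.44, 7.25, 7.23, and 4.87 in early torpor and 7.53, 6.26, 8.26, 5.98, and 6.32 in late torpor. The T livers were thus widely spread, and early torpor animal 4 lay among the P livers.

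The LDHA level was 6.26, 5.92, 7.26, and 6.20 in early arousal and 6.70, 7.38, 6.33, and 7.05 in late arousal. In P it ran from 4.69 over a median of 4.91 to 5.37. The P livers thus lay within a narrow band, below all 8 A livers and below 8 of 9 T livers.

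Group means of the LDHA level were 6.87 ± 0.98 (SD, n = 5) in late torpor, 6.87 ± 0.45 (SD, n = 4) in late arousal, 6.70 ± 1.22 (SD, n = 4) in early torpor, 6.41 ± 0.59 (SD, n = 4) in early arousal, and 4.94 ± 0.24 (SD, n = 7) in P. The 4 hibernating groups overlapped with each other. The ranges of early arousal, late arousal, and late torpor lay above that of P.

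**Figure D1:**
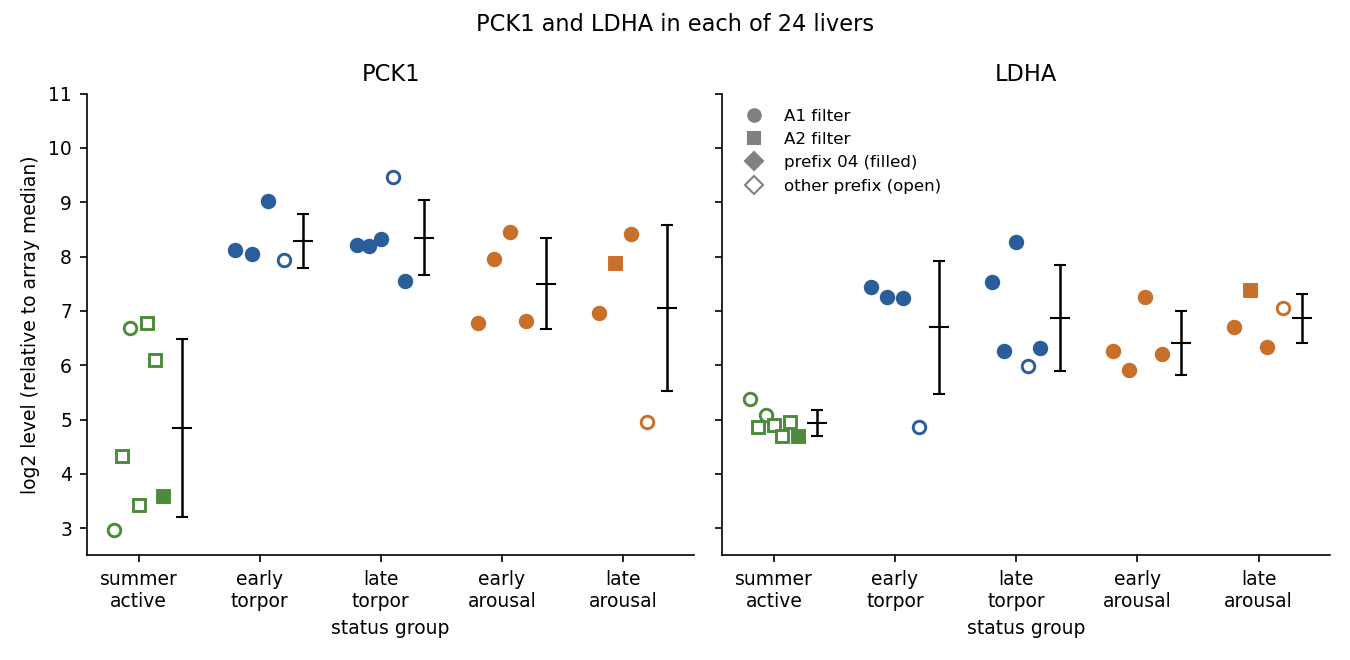
Log2 level of PCK1 (left) and LDHA (right), relative to the array median, in each liver by status group. Bars are the mean ± SD, circles are A1 and squares A2 filters, and filled symbols are animals with the prefix 04. PCK1 in P spans 2.97 to 6.78 and LDHA in P spans 4.69 to 5.37, whereas in torpor LDHA is the more widely spread.

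Relative to P, the PCK1 level was higher by 3.48 (SE 0.52, 9 T and 7 P arrays) in T and by 2.44 (SE 0.54, 8 A arrays) in A. On the linear scale these are 11.2-fold and 5.42-fold. The LDHA level was higher by 1.86 (SE 0.33) in T and by 1.70 (SE 0.34) in A, or 3.62-fold and 3.25-fold. Among 9599 probes ranked by the difference of T and P, PCK1 stood at place 5 and LDHA at place 29. Ranked by A and P over 9600 probes, they stood at places 12 and 26. The SE is from limma and draws on the spread within states. In bulk liver, fewer cells of a type and less RNA per cell cannot be told apart.

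All 9 T values of PCK1 exceeded all 7 P values. Of 9407 probes measured on all arrays, 0.404% had T values that lay wholly above P. All 8 A values of LDHA exceeded all 7 P values, and 0.0957% of the probes were separated in this direction between A and P. PCK1 in A and LDHA in T each overlapped with P through 1 animal, late arousal animal 4 and early torpor animal 4. The genes were chosen on these contrasts, so nothing is read from these counts.

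Between T and A, PCK1 differed by 1.04 (SE 0.50), or 2.06-fold, higher in T. Only 2 of the 9 T values lay above all 8 A values, and with quantile normalization the difference was 0.58. LDHA differed by 0.15 (SE 0.32), and this sign was not stable: with quantile normalization the difference was -0.30 and with normexp background correction -0.02. Among animals with the prefix 04, T exceeded A by 0.60 (SE 0.29) for PCK1 and by 0.60 (SE 0.30) for LDHA. Of all probes, 0.469% were called between T and A at an adjusted p under 0.05 by limma, 37 higher and 8 lower in T. That split depended on scaling, with 4 higher and 13 lower after quantile normalization. Some cell markers were also higher in T than in A. So were 874 of the 1329 named genes, with a median difference of 0.19 over all of these. Of the 5 hepatocyte markers that could be named, 4 were higher in T and FGB was lower, with a median difference of 0.59. APOB was called by limma (0.86, adjusted p = 0.0110). The leukocyte marker LYZ was at 0.64 and DCN of stellate cells at 0.02, and neither was called. The red cell marker HBA2 was at 1.26 in this comparison and was not called (adjusted p = 0.0906). The part of these markers in the PCK1 difference was not tested.

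**Figure D2:**
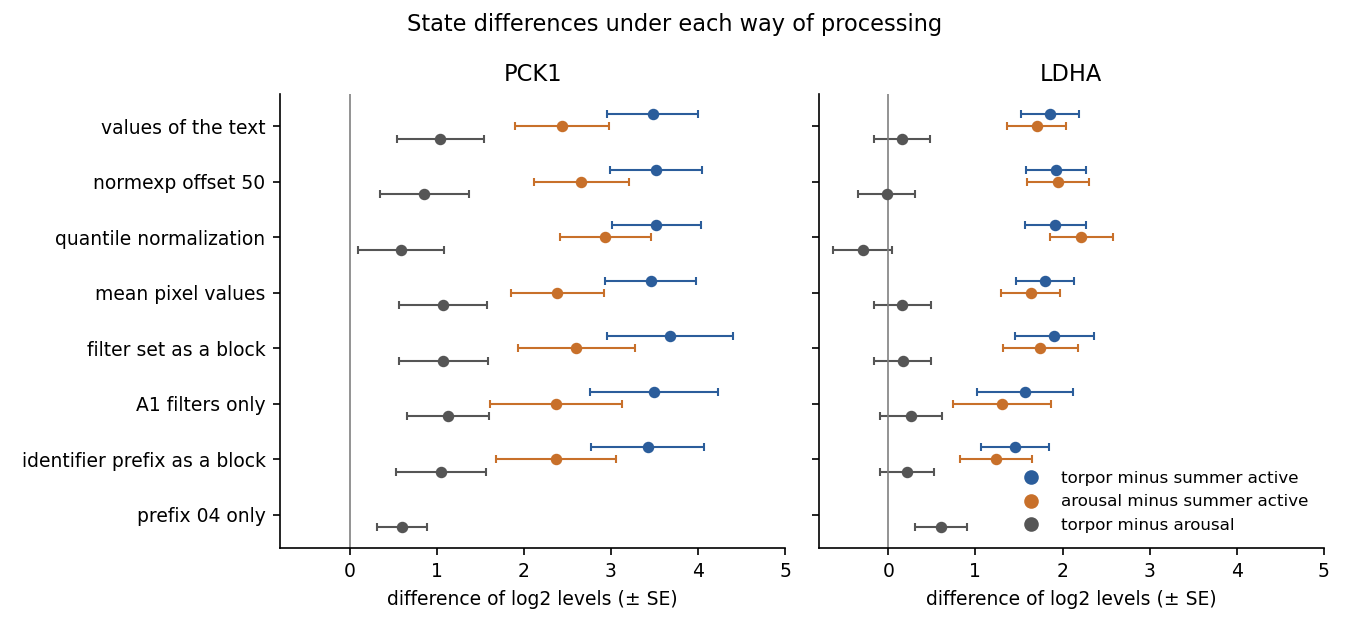
Differences of the log2 levels between states (horizontal axis, with SE as bars) for PCK1 (left) and LDHA (right) under 8 ways of processing the arrays (vertical axis). The differences of T and A from P stay above 1 in all of those shown, whereas the difference of LDHA between T and A lies on either side of 0.

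The differences from P were also fitted within filter sets and prefixes. With filter set as a block, PCK1 exceeded P by 3.68 (SE 0.72) in T and 2.60 (SE 0.67) in A, and LDHA by 1.91 (SE 0.46) and 1.74 (SE 0.43). On A1 filters only, with 2 P arrays, the differences from P were 3.49 (SE 0.74) and 2.36 (SE 0.76) for PCK1 and 1.57 (SE 0.55) and 1.31 (SE 0.56) for LDHA. With the prefix as a block, PCK1 was higher by 3.42 (SE 0.65) in T and 2.37 (SE 0.69) in A, and LDHA by 1.45 (SE 0.39) and 1.24 (SE 0.41). The LDHA difference was thus smaller with the prefix as a block and that of PCK1 changed little.

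Within P, filter sets could be compared directly, although 2 arrays against 5 cannot give a 2-sided p below 0.0952. The mean PCK1 level was 4.82 on A1 and 4.84 on A2 filters (exact permutation p = 0.857, 2-sided). The A1 livers were the lowest and the second highest of the 7, at 2.97 and 6.68. LDHA was 5.22 on A1 and 4.82 on A2 filters, a difference of 0.40 (exact permutation p = 0.0952, 2-sided, the smallest possible), with both A1 livers above all 5 A2 livers. The part of filter set in the LDHA difference from P was not tested.

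The prefix moved with LDHA in torpor. The 7 T livers with the prefix 04 had a mean LDHA level of 7.18 ± 0.70 (SD, n = 7). The 2 T livers without it, early torpor animal 4 and late torpor animal 4, differ in prefix from each other. They had 4.87 and 5.98 and were the lowest in T. For PCK1 these livers were not low, at 7.94 and 9.47, and the latter was the highest of all 24. Late arousal animal 4, the single A liver with another prefix, had the lowest PCK1 level of A but an LDHA level of 7.05. The part of the prefix in these values was not tested.

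The spread between livers differed between the genes and states. In P, the SD of PCK1 was 1.63, larger than that of 99.7% of 9467 probes, whereas the SD of LDHA was 0.24, larger than that of 13.1%. In T, this order was turned: the SD was 0.58 for PCK1 and 1.02 for LDHA, larger than 90.5% and 99.1% of probes. In A, the SD was 1.16 for PCK1 and 0.54 for LDHA, larger than 99.2% and 75.2% of probes. The median SD over all probes was 0.34 in T, 0.42 in A, and 0.39 in P. Levels were also set beside array brightness, the log2 of the median background-subtracted signal of the array. For LDHA, Pearson's r with it was 0.61 in T, -0.56 in A, and -0.04 in P. For PCK1, r was 0.13 in T, 0.32 in A, and -0.24 in P. The part of array brightness in these spreads was not tested.

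Brightness around the spots was also examined. In 3 of 7 P arrays at least 1 of the 8 spots around PCK1 had a higher signal, before background subtraction, than PCK1, and in 0 of 17 T and A arrays. The brightest of them, gene6618, had a mean level of 4.46 in T, 4.15 in A, and 4.37 in P. LDHA has a bright neighbour, gene5464, with a mean level of 6.20 in T, 5.70 in A, and 6.06 in P. At least 1 of the 8 spots around LDHA had a higher signal than LDHA in 3 of 9 T, 1 of 8 A, and all 7 P arrays. The part of signal from neighbouring spots in the levels of PCK1 and LDHA was not tested. The local background of PCK1 was at most 5.08% of its signal in P and 1.88% in A, and that of LDHA was at most 2.48% of its signal on any array.

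The 2 stages of torpor and of arousal allow tests that the choice of genes did not use. Between early and late torpor, PCK1 differed by -0.07 (95% interval -1.55 to 1.41) and LDHA by -0.17 (-1.10 to 0.75). The adjusted p was 0.998 for both (limma, Benjamini-Hochberg over all probes). Between early and late arousal, PCK1 differed by 0.45 (-1.11 to 2.01, adjusted p = 0.918) and LDHA by -0.46 (-1.43 to 0.52, adjusted p = 0.860). The intervals are wide, above all for PCK1, so the arrays do not show that the stages are alike. In both states 0% of probes were called between stages by limma, with 458 of 9595 at an unadjusted p under 0.05 in torpor and 748 of 9597 in arousal. The early minus late difference of arousal was not shown to differ from that of torpor for either gene (adjusted p = 0.968 for both).

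Over the cycle, mean PCK1 stepped down by 0.85 from late torpor to early arousal and by 0.45 from early to late arousal, and was 1.23 higher in early torpor than in late arousal. LDHA stepped down by 0.46 from late torpor to early arousal, was higher by 0.46 in late than in early arousal, and was 0.17 lower in early torpor than in late arousal. The ranges of the groups overlapped at each of these steps. Leaving out late arousal animal 4 turned the sign of the PCK1 difference between early and late arousal, to -0.25.

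Subtracting LDHA from PCK1 on each array removes the array median. The difference has no meaning as a level, since brightness differs between probes, but it can be compared between arrays. It was 1.58 ± 1.11 (SD, n = 4) in early torpor, 1.48 ± 1.32 (SD, n = 5) in late torpor, 1.09 ± 0.70 (SD, n = 4) in early arousal, 0.18 ± 1.72 (SD, n = 4) in late arousal, and -0.10 ± 1.71 (SD, n = 7) in P. The highest values were 3.49 in late torpor animal 4 and 3.07 in early torpor animal 4. The lowest were -2.40 in P animal 1 and -2.10 in late arousal animal 4, in which LDHA was at its level in hibernation but PCK1 was not.

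Early and late torpor differed by 0.10 in this measure (exact permutation p = 0.873, 2-sided) and early and late arousal by 0.91 (exact permutation p = 0.371, 2-sided). The smallest p these designs allow is 0.0159 for torpor and 0.0286 for arousal. When each array was left out in turn, the arousal difference ran from 0.14, without late arousal animal 4, to 1.53, without late arousal animal 3. The exact permutation p ran from 0.0571 to 0.743. With an arousal array left out, 0.0571 is the smallest p possible, so none of these runs could fall under 0.05.

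**Figure D3:**
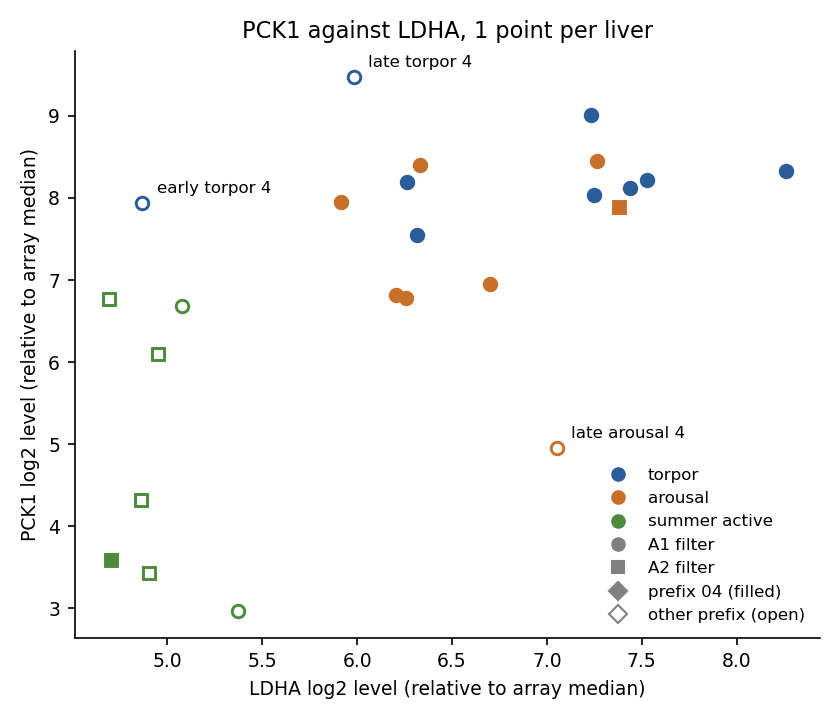
Log2 level of PCK1 (vertical axis) against that of LDHA (horizontal axis), relative to the array median, with 1 point per liver. Colour gives the state, circles are A1 and squares A2 filters, and filled symbols have the prefix 04. The P livers form a column of low LDHA in which PCK1 runs from 2.97 to 6.78, and the 3 labelled livers are the T and A livers with another prefix.

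No relation between the levels of PCK1 and LDHA within a state passed the test. In T, Pearson's r was 0.05 and Spearman's rho 0.18 over 9 arrays (exact permutation p = 0.927 and 0.644). In A they were -0.05 and 0.14 over 8 arrays (exact permutation p = 0.875 and 0.752). In P they were -0.28 and -0.39 over 7 arrays (exact permutation p = 0.571 and 0.396), with PCK1 lying in the 2 ranges given above. Adjusted over the 3 states, p was 0.927 for each r and 0.752 for each rho. Without the 2 arrays farthest from the median of PCK1, r was 0.55 in T, 0.10 in A, and -0.28 in P. With 7 to 9 arrays a relation of moderate size could not have been detected.

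Of all 9406 other probes measured on every array, the one most like PCK1 over the 24 livers was G6PC, the catalytic subunit of glucose-6-phosphatase, which frees glucose in the last step of gluconeogenesis (Pearson's r = 0.82 of levels). Next among the named genes were ID2, an inhibitor of DNA binding by helix-loop-helix factors (r = 0.76), C1orf93 (r = 0.76), LOC645381 (r = 0.76), and SLC25A4, a mitochondrial carrier of ADP and ATP (r = 0.74). The probe most like LDHA was CROT, a peroxisomal carnitine acyltransferase (r = 0.85). It was followed among named genes by SLC25A4 (r = 0.81), CYP4A11, a hydroxylase of fatty acids (r = 0.78), MTMR15 (r = 0.76), and FHL1 (r = 0.75). These values describe all 24 arrays together. They include the differences among states, on which PCK1 and LDHA were chosen, and those among filter sets and prefixes.

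For deviations from the 5 group means, the named genes most like PCK1 were PRPSAP1 (r = 0.66), SLC27A5 (r = 0.65), ID2 (r = 0.63), G6PC (r = 0.63), and FGFR1OP2 (r = 0.60). Those most like LDHA were COQ10B (r = 0.65), CCDC55 (r = 0.65), CROT (r = 0.61), PRELID1 (r = 0.58), and BBOX1 (r = 0.58). ID2 and G6PC for PCK1, and CROT for LDHA, were thus among the 5 by both measures. By deviations, 4 of the 9406 probes were more like PCK1 than PRPSAP1 was, and 12 more like LDHA than COQ10B.

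G6PC followed PCK1 within each state, with r = 0.66 in T, 0.81 in A, and 0.58 in P. Without the 2 arrays farthest from the median of PCK1, these were 0.47, 0.40, and 0.31. CROT followed LDHA in T (r = 0.89, and 0.77 without 2 arrays), but r was 0.41 in A and 0.09 in P. The pairs were picked for their likeness on the same arrays, so no p is given.

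**Figure D4:**
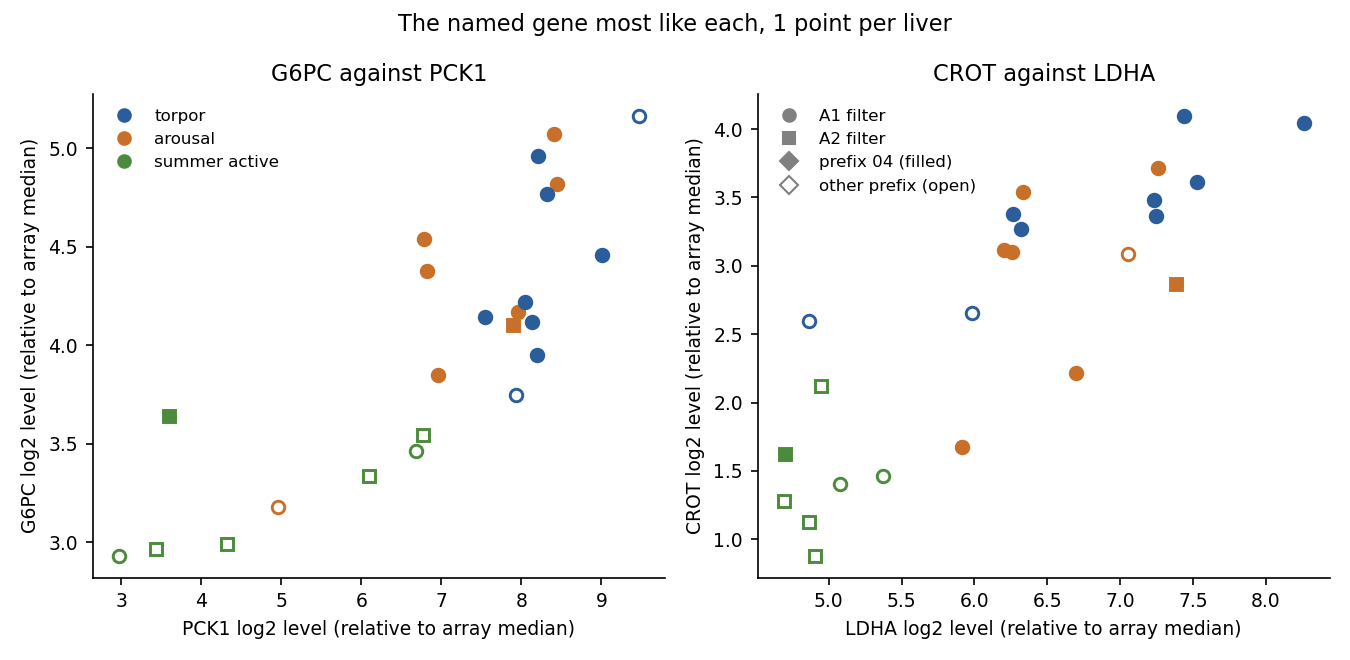
Log2 level of G6PC against PCK1 (left) and of CROT against LDHA (right), relative to the array median, with 1 point per liver and the state as colour. Over the 24 arrays r is 0.82 and 0.85; late arousal animal 4 (open orange circle) has the lowest G6PC level of A, and early torpor animal 4 has the lowest CROT level of T.

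The other genes of carbohydrate metabolism were counted in lists of 109 genes besides PCK1 and LDHA, of which 25 were paired with a probe. All paired genes were selected by the study on these arrays, so their counts are a description and not independent evidence. In T against P, 11 of the 25 were called by limma at an adjusted p under 0.05, 3 higher and 8 lower in T. Of all probes 9.86% were called in this contrast, 5.5% higher and 4.35% lower, and of the 1329 named genes 47.3%. In A against P, 15 of the 25 were called, 2 higher and 13 lower in A, against 8.47% of all probes, 2.61% higher and 5.85% lower, and 38.5% of the named genes. The share of the list called was close to that of the named genes in T and above it in A, which was not tested. The median difference over the 25 genes was -0.51 in T and -0.65 in A, over the named genes -0.05 and -0.27, and over all probes -0.02 and -0.05. Between T and A, 0 of the 25 were called by limma, and 10 had an unadjusted p under 0.05.

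Of the gluconeogenesis list, G6PC and SLC37A4 were paired besides PCK1. The T livers had a mean G6PC level of 4.39 ± 0.48 (SD, n = 9), the A livers 4.26 ± 0.59 (SD, n = 8), and the P livers 3.27 ± 0.30 (SD, n = 7). All 9 T values, from 3.75 to 5.17, lay above the P values, from 2.93 to 3.64, and the A values from 3.18 to 5.07 overlapped with them. Of 9407 probes measured on all arrays, 0.404% had T values wholly above P. The study selected G6PC on these arrays, so nothing is read from this separation. G6PC was higher than in P by 1.13 in T (SE 0.23, adjusted p = 0.00369) and by 0.995 in A (SE 0.24, adjusted p = 0.0110). SLC37A4, the carrier that brings glucose 6-phosphate to this enzyme, was lower by 0.66 in T (difference -0.66, SE 0.19, adjusted p = 0.0328) and by 0.65 in A (difference -0.65, SE 0.20, adjusted p = 0.0411). The 2 partners of the glucose-6-phosphatase system thus differed from P in opposite directions.

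Of the glycolysis list, 6 of 21 genes were paired, and none was called higher than P in either state. Of all probes, 5.5% were called higher in T and 2.61% in A. In T, PGAM2, a phosphoglycerate mutase, was lower (-0.91, adjusted p = 0.0192), but with filter set as a block the difference was -0.14 (adjusted p = 0.914) and on A1 filters only -0.25 (adjusted p = 0.913). In A, GPI, which interconverts the hexose 6-phosphates, was lower (-0.69, adjusted p = 0.00965), as was the enolase ENO1 (-0.63, adjusted p = 0.0214). PFKP, ALDOA, and GAPDH were not called in either state, with differences from P of -0.63, -0.64, and 0.25 in T. PDK2, an inhibitor of pyruvate dehydrogenase and the only other paired gene of 19 on the lactate and pyruvate list, was not called, at 0.15 in T and -0.39 in A. With filter set as a block, no gene of the glycolysis list was called in either state, against 0.969% of all probes in T and 2.71% in A. With so few probes called, nothing is read from this. LDHA was chosen for being higher in hibernation, so nothing is read from its sign beside these genes.

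The oxaloacetate and shuttle list, which holds the carriers and enzymes that feed PCK1, had 6 of 10 genes paired. SLC25A11, the oxoglutarate carrier of mitochondria, was higher in T (0.80, adjusted p = 0.0116) and in A (0.69, adjusted p = 0.0336). With filter set as a block SLC25A11 lost both calls, at 0.22 in T (adjusted p = 0.7996) and 0.22 in A (adjusted p = 0.764), and on A1 filters only it was at 0.27 in each. The cytosolic malate dehydrogenase MDH1 (-0.92, adjusted p = 0.00909) and the aspartate-glutamate carrier SLC25A13 (-0.91, adjusted p = 0.0317) were lower in A. Neither passed the test in T, where they were at -0.55 and -0.45. MDH2, GOT2, and GPD1 were not called in either state.

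Of the genes of glycerol and amino acid supply, 4 of 10 were paired. GPT, the alanine aminotransferase, was lower than P by 1.17 in T (difference -1.17, adjusted p = 0.00364) and by 1.07 in A (difference -1.07, adjusted p = 0.00783). The liver glutaminase GLS2 (-0.97, adjusted p = 0.0113) and the glycerol channel AQP9 (-0.97, adjusted p = 0.0107) were lower in A, and at -0.51 and -0.52 in T, where they were not called. Glutamine synthetase, GLUL, was at 0.996 in T and -0.09 in A and was not called. On the glycogen list, UGP2, which makes UDP-glucose, was lower in T (-0.74, adjusted p = 0.0300) and in A (-1.23, adjusted p = 0.00125), and GYG1, the glycogenin primer, was higher in T (0.97, adjusted p = 0.0188) but not called in A (0.61). Within filter sets this GYG1 difference was near 0: with filter set as a block it was 0.014 in T (adjusted p = 0.999) and -0.18 in A, and on A1 filters only 0.041 and -0.15. The UGP2 difference in T was -0.31 with filter set as a block (adjusted p = 0.781).

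Of the pentose phosphate pathway, which yields NADPH and ribose, 3 of 6 genes were paired. All 3 were called lower in both states, and their median difference was -1.35 in T and -1.45 in A. Of all probes, 4.35% were called lower in T and 5.85% in A. Of the named genes, 47.3% were called in T and 38.5% in A, in either direction. PGD, the 6-phosphogluconate dehydrogenase, changed by -1.72 in T (SE 0.19, adjusted p = 3.32e-06) and by -1.46 in A (SE 0.20, adjusted p = 4.07e-05). TALDO1, transaldolase, changed by -1.35 and -1.45 (adjusted p = 0.00235 and 0.00167). TKT, transketolase, changed by -1.16 and -1.38 (adjusted p = 0.0204 and 0.00952). With the prefix as a block, TKT was called in neither state. The spots of PGD and TALDO1 were below the middle probe in T, at mean levels of -1.24 and -1.54. FOXO3, a forkhead factor under insulin control and the only paired gene of 27 regulators, changed by -1.35 in T and -1.26 in A (adjusted p = 0.000908 and 0.00219).

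**Figure D5:**
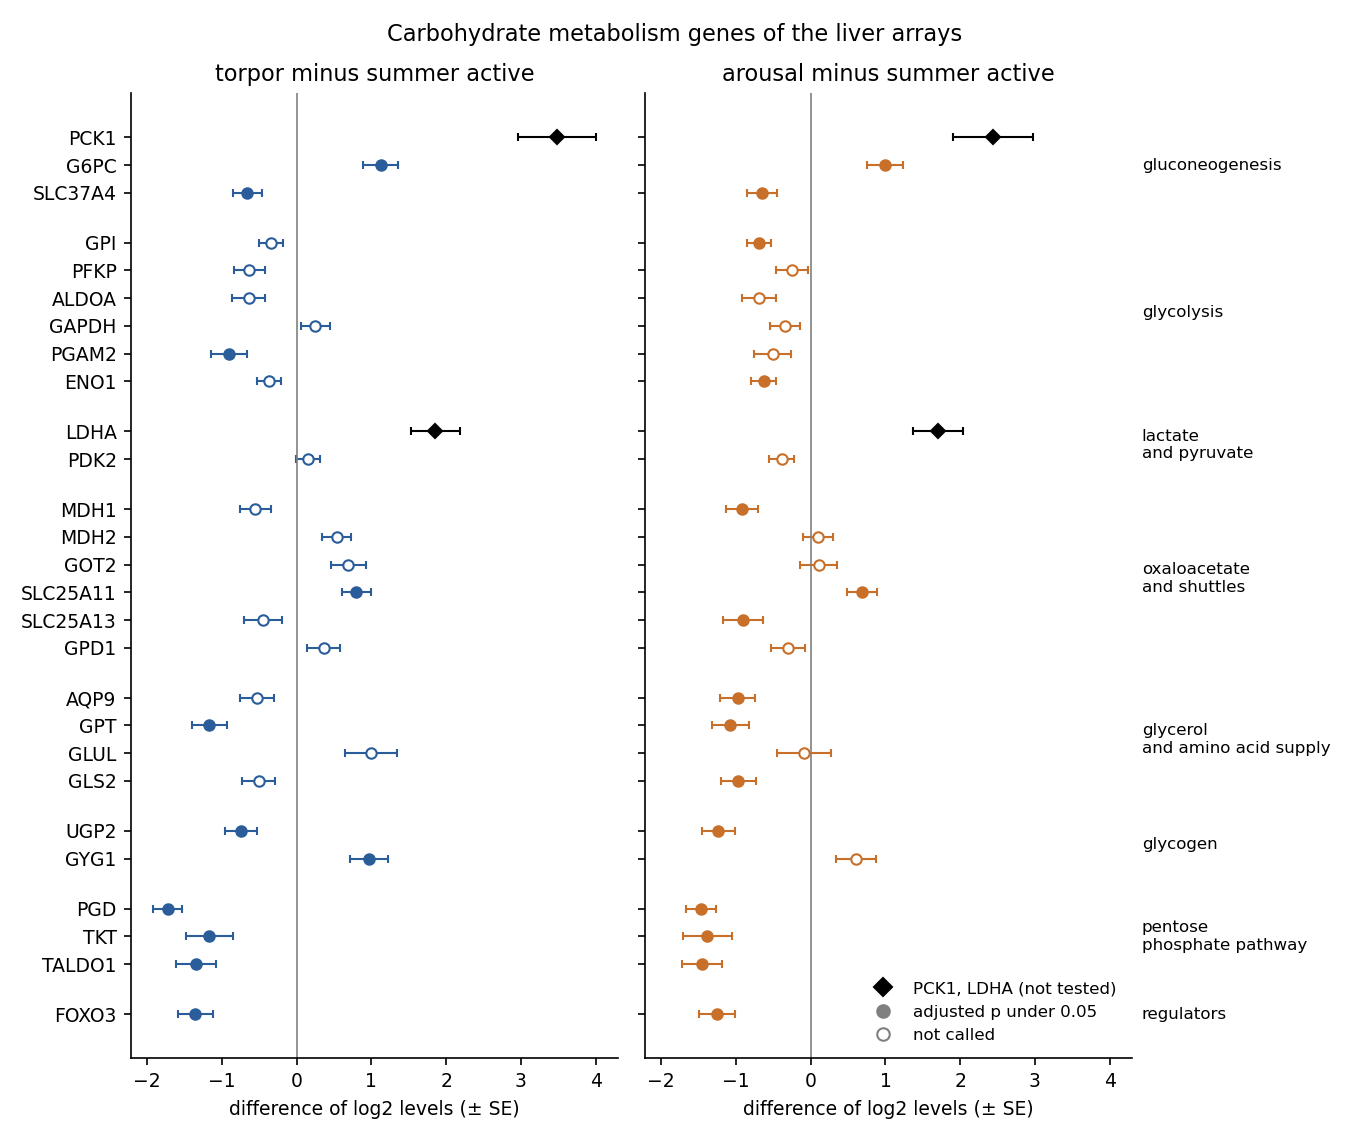
Difference of the log2 level between T and P (left) and between A and P (right) for PCK1, LDHA, and the 25 other paired genes of carbohydrate metabolism, by list. Bars are the SE and filled circles are genes called by limma at an adjusted p under 0.05; PCK1 and LDHA (diamonds) were not tested. PCK1 and LDHA have the highest differences of the genes shown, and PGD, TKT, and TALDO1 are among the lowest.

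Many of these calls depended on filter set and prefix. With filter set as a block, 2 of the 25 were called in T, PGD and TKT, and 4 in A, GLS2, PGD, TALDO1, and TKT, against 0.969% and 2.71% of all probes. The G6PC differences were then 1.12 in T (adjusted p = 0.0891) and 0.99 in A (adjusted p = 0.0799), of about the same size with a larger error. For other genes the difference itself moved. In T, those of GYG1, PGAM2, SLC25A11, and UGP2 shrank as given above and that of FOXO3 to -0.89, whereas that of TKT grew to -1.96. On A1 filters only, the GPT difference was -0.51 in T and -0.39 in A. Over all processing alternatives other than leaving out an array, the adjusted p of G6PC ran from 0.00282 to 0.231 in T and from 0.00196 to 0.254 in A. When each array was left out in turn, 6 of the 11 calls in T and 11 of the 15 in A never ended. The calls of SLC37A4 ended for 6 of 24 arrays in T and 11 of 24 in A, that of UGP2 in T for 6, and those of SLC25A11 and SLC25A13 in A for 8 and 5. Without P animal 4, the calls of SLC37A4, TKT, and UGP2 in T and of ENO1, SLC25A11, SLC25A13, and SLC37A4 in A ended, and without P animal 5 or P animal 6 that of GYG1 in T, and without P animal 5 that of PGAM2.

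Markers of liver cell types were examined in the same way. Of 16 hepatocyte markers 5 were paired, and albumin (ALB) was at 8.82 in T, 8.41 in A, and 8.26 in P. Their summed level was between 461 and 1221 times the array median in T, 378 and 667 in A, and 569 and 858 in P. APOB was higher in T (0.71, adjusted p = 0.0075) and FGB lower (-1.28, adjusted p = 0.0132), and TTR (-1.32, adjusted p = 0.00165) and SERPINA1 (-0.81, adjusted p = 0.0414) were lower in A. Of the other cell types, 1 marker each was paired. The red cell marker HBA2 was between 0.97 and 7.81 in T, 0.40 and 2.42 in A, and 1.55 and 2.42 in P, as a multiple of the array median. The leukocyte marker LYZ was lower in A (-1.14, adjusted p = 0.0353), and DCN of stellate cells was higher in T (0.70, adjusted p = 0.0407). None of 4 bile duct markers was paired, and no paired marker was at 0. The part of cell makeup in the levels of PCK1 and LDHA was not tested.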

How the data were processed

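RNA from 24 AGS livers was linearly amplified, labeled with 33P, and hybridized to nylon cDNA arrays by the authors, all in the same batch. Filters were scanned with a phosphorimager, and the authors deposited the spot intensity and local background intensity (median and mean pixel values, not subtracted) that ImaGene 6.1.0 gave. The authors also deposited a linear ratio per spot, the background-subtracted median signal over its median on the array, with a floor of 0.002. The genome build and the probe sequences were not used. Recomputing this ratio from the scanner intensity gave the deposited ratio within 4.98e-07, except at 2297 spots that stood at the floor. The recomputed ratio was analysed as log2, and the 668 of 230400 spots at or below 0 were missing values.

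Symbols were paired with probes by their state means (1329 of 1329 matched, largest distance 5.0e-06). The members and gene lists were chosen with earlier results of these data known. A listed gene is not reported here and was left out of the counts. Named genes are PCK1, LDHA, all paired genes of the lists, and the 5 named genes most like each member by each of 2 measures. Groups came from the status in the labels. State differences were fitted with limma 3.58.1 (lmFit and eBayes, R 4.3.3) over 3 states, and stages over 5 groups, with p adjusted over all probes by Benjamini-Hochberg and called under 0.05. Each sample was a separate animal. Other tests were exact permutation tests in Python 3.11.15 with numpy 2.4.6, scipy 1.17.1, and pandas 2.3.3, and plots were drawn with matplotlib 3.10.9. Scripts were tested on simulated data. The number of arrays limits the precision.

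The alternatives were normexp correction with an offset of 50, quantile normalization, mean pixel values, a floor in place of missing values, the authors' ratio as deposited, leaving out probes not over 2 times background on at least 7 arrays, filter set or prefix as a block, A1 filters only, 5 groups in the fit, the methods' test with Storey's q-values and Tukey's HSD, and leaving out each array. Animals with the prefix 04 only, and the alternatives of the filter set comparison within P, were added after the data were seen.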

Additional observations from a re-analysis of the deposited data

Results flagged for a closer look

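The LDHA level of early torpor animal 4, 4.87, lay far below the other 3 early torpor livers, the nearest of which was at 7.23. The gap was 0.92 of the range of the group, above Dixon's 95% critical value of 0.829 for 4 samples. Dixon's test was run on 20 sets of values (PCK1, LDHA, their difference, and G6PC in the 5 groups) and flagged 1, and chance flags about 1 in 20. The spot was not marked as empty and its signal was 44.9 times the local background. The PCK1 level of the same liver was 7.94, within the range of torpor. Without this animal, LDHA exceeded P by 2.10 in T, and early torpor exceeded late torpor by 0.44.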

How the results depend on the processing

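No processing alternative turned a difference of PCK1 or LDHA from P. Apart from leaving out arrays, the difference of T from P ran from 3.42 to 3.68 for PCK1 and from 1.45 to 1.93 for LDHA, and that of A from P from 2.36 to 2.94 and from 1.24 to 2.21. Leaving out each array in turn gave 3.17 to 3.80 and 1.67 to 2.10 for T, and 2.13 to 2.77 and 1.60 to 1.81 for A. The median of all probes moved by under 0.1 with each scaling. After quantile normalization the calls between A and P split into 293 higher and 283 lower, and after normexp into 293 and 1459, against 251 and 562.

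The torpor stage differences, and the PCK1 difference in arousal, changed sign under some settings, whereas the LDHA difference in arousal stayed below 0, from -0.74 to -0.28. No stage difference of PCK1 or LDHA was called, with every adjusted p at 0.758 or above. Early minus late torpor was 0.077 for PCK1 with normexp and, with the prefix 04 only, 0.32 for PCK1 and 0.21 for LDHA. Early minus late arousal was -0.25 for PCK1 with the prefix 04 only. Without each array, the torpor difference ran from -0.31 to 0.21 for PCK1 and -0.42 to 0.44 for LDHA, and the PCK1 difference in arousal from -0.25 to 0.90. For PCK1 minus LDHA, the torpor difference ran from -0.39 to 0.61 and the arousal difference from 0.14 to 1.53. The correlation of PCK1 and LDHA ran from -0.18 to 0.42 in T, -0.30 to 0.35 in A, and -0.50 to 0.27 in P, and was 0.027 in P with mean pixel values. PCK1 on A1 minus A2 filters within P was 0.12 with normexp and 0.012 with quantile normalization, and ran from -1.88 to 1.84 without each array. The cause was not tested.

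Of the other carbohydrate genes, 11 were called between T and P, and 7 with normexp, 2 with filter set as a block, 3 on A1 filters only, 6 with the prefix as a block, and 17 by the methods' test. Between A and P, 15 were called, and 4 with filter set as a block, 2 on A1 filters only, and 3 with the prefix as a block. Between T and A, 0 were called by limma, 1 with mean pixel values (PDK2), and 5 by the methods' test. Without each array, the counts were 8 to 14, 11 to 18, and 0 to 1. A1 filters hold only 2 P arrays, so fewer samples enter that fit. No paired analysis was possible because the labels give each animal its own identifier and no replicate number.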
